A study of Mus musculus with 6 samples.

Results

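The genes described here are 6 genes grouped as markers of the expansion of mouse white fat, Mest, Sfrp5, Bmp3, Npr3, Nnat and Trp53inp2. They were found by symbol, current or older, in the platform annotation of the array. Of the 6, 5 had a probe set that names no other gene, out of 18193 genes so represented, and these 5 were read by 9 probe sets. Bmp3, which encodes a bone morphogenetic protein (BMP), had no probe set naming it alone, under its current or older symbols, and is not analysed here. Probe sets that name several genes were not searched. The arrays measured total RNA of white adipose tissue from 3 KSR2-/- mice and 3 WT mice. All 6 animals were C57Bl6 females aged 6 months, and the RNA of each went onto its own Affymetrix chip. KSR2 is a scaffold that holds RAF, MEK and ERK kinases together. The labels name neither the fat depot nor the deleted part of Ksr2, and the -/- genotype is the only allele they give.

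White fat grows by enlarging existing adipocytes and by making more of them. In mice, Mest, Sfrp5 and Bmp3 are known as genes whose levels in fat go up together when adipocytes fill on a rich diet, and whose levels vary between genetically identical animals. Mest and Nnat are imprinted, so that only the paternal copy is read. Sfrp5 and Bmp3 act outside the cell on WNT and BMP signalling, Npr3 removes natriuretic peptides from the cell surface, and Trp53inp2 works in autophagy.

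The promoters of the 3 members with the largest differences, and of Nnat, the 1 member that was lower, are shown because imprinting and many other controls act through methylation of CG dinucleotides there. Each sequence is the RefSeq window of GRCm38.p6 from 250 bases before to 50 bases after a transcription start, 5′ to 3′ on the gene's own strand, and capitals mark each CG.
Mest, chr6:30737800-30738099, plus strand: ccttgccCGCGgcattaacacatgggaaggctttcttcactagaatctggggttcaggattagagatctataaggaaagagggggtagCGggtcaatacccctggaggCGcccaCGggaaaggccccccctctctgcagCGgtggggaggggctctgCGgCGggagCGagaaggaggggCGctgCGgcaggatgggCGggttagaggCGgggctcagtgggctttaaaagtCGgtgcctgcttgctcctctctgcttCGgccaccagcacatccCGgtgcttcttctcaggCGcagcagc
Sfrp5, chr19:42202203-42202502, minus strand: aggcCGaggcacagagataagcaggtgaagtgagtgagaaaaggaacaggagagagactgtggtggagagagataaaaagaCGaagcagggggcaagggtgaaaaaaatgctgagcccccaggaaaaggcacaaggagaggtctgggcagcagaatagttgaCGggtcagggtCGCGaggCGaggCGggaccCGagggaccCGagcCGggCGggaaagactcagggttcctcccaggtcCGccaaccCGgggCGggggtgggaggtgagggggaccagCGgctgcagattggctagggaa
Trp53inp2, chr2:155381606-155381905, plus strand: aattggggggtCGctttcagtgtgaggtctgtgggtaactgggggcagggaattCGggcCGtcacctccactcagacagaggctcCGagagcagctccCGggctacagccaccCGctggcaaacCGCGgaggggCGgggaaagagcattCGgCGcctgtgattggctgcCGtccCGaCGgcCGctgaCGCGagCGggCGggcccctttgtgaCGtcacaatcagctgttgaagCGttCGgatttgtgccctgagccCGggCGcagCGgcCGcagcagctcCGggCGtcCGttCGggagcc
Nnat, chr2:157559828-157560127, plus strand: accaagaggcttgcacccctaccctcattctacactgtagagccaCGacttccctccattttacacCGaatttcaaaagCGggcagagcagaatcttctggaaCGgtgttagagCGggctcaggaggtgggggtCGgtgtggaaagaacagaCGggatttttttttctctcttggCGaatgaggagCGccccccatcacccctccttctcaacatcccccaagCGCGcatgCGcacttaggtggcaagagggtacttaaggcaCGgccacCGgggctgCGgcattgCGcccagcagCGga

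All 5 measured members had such a window, 7 in all, since Mest has 3 starts. The Mest and Nnat windows shown hold 17 CG each, a number that 31.4% of the 32851 windows in the table reach, against a median of 7. Sfrp5 holds 15, which 34.6% reach, and Trp53inp2 holds 30, which 11.7% reach. Npr3 holds 6. The second Mest window shares nearly all its bases with the one shown, and the third, farther upstream, holds 8 CG. The letters CCAAT, searched on both strands, were in the windows of Sfrp5, Npr3 and Trp53inp2 and in 37.4% of all windows. Searched likewise, the TATA box TATAAA (in 13.6% of all windows), the E-box CACGTG (7.15%), the nuclear receptor half-site AGGTCA (16.3%), the TCF motif ATCAAAG (3.73%) and the C/EBP motif TTGCNNCAA (2.08%) were in none of the 7 windows. These matches describe letters only.

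The libraries were comparable in level, with medians of 22.4 to 24.2 linear intensity units and Pearson correlations of 0.955 to 0.988 between arrays, taken across genes. The numbers in the animals' titles form a higher-numbered series (KSR2-/- 1 and 2, WT 1 and 2) and a lower-numbered pair (KSR2-/- 3 and WT 3). WT 3 stood apart in the log2 difference between the 3′ and 5′ control probe sets of Gapdh, which grows as RNA is broken, at 4.18 where the others had 0.07 to 1.46. Ksr2 itself read 4.47, 4.28 and 4.26 log2 in KSR2-/- mice and 4.74, 4.04 and 4.47 log2 in WT mice. These levels lie below the median gene mean of 5.96 and overlap, so that they do not check the genotype labels (limma adjusted p = 0.935). Of the 10 adipocyte markers 7 were measured and all 7 lay at or above the median gene, with summed linear intensities of 30631, 37081 and 52510 in KSR2-/- mice 1 to 3 and 42748, 49017 and 50285 in WT mice 1 to 3. KSR2-/- 1 and 2 lay below every WT mouse in this sum and KSR2-/- 3 above, and at an unadjusted limma p under 0.05 1 of the 7 markers was higher and 2 were lower. Values below are log2 intensities unless called linear, and differences are KSR2-/- minus WT.

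Mest and Trp53inp2 were higher in all 3 KSR2-/- mice than in any WT mouse, by 4.28-fold and 2.41-fold on average. Sfrp5 was 3.8-fold and Npr3 1.46-fold higher on average, with overlap between the genotypes, and Nnat was lower by 0.50 log2, also with overlap. None of the 5 passed limma at a Benjamini-Hochberg adjusted p under 0.05 over all 18193 genes, a threshold that 1 gene (0.0055%) passed. Unadjusted limma p was under 0.05 for 2 of the 5, Mest and Trp53inp2, both higher, where 6.71% of all genes were so called in that direction and 5.38% in the other. Separation of the groups with KSR2-/- on top was found in the same 2 of 5 members and in 7.72% of all genes, and separation with KSR2-/- below in 0 members and 8.56% of all genes. The median difference of the 5 members was 1.27 log2, beside -0.04 log2 over all genes. The members were chosen with earlier results of these data known, so these shares and this median are not independent evidence of a direction. In whole fat tissue, fewer cells of a type and less RNA per cell cannot be told apart.

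**Figure D1:**
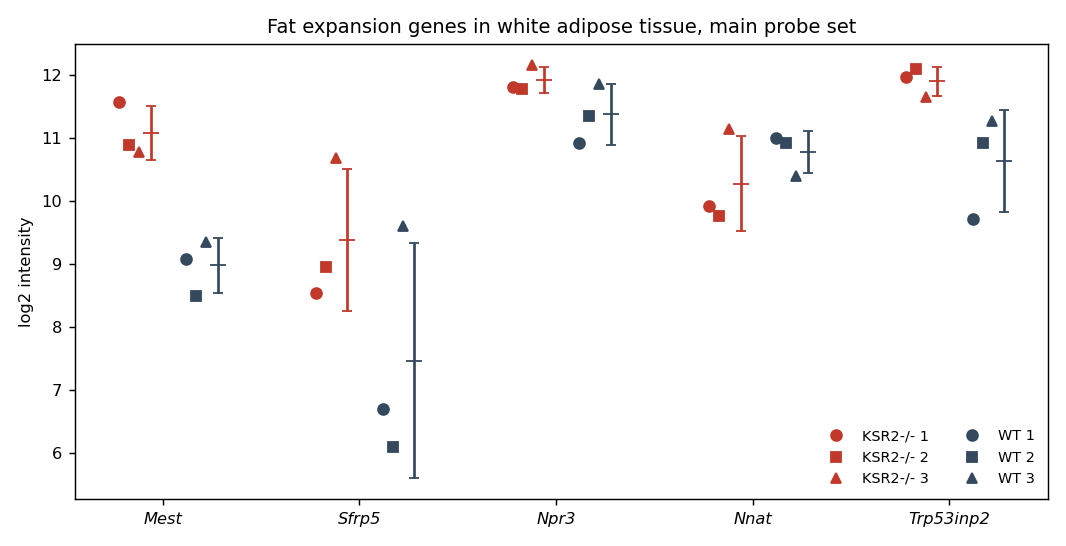
Log2 intensity (vertical axis) of the main probe set of each measured gene in KSR2-/- mice 1 to 3 (red, left of each gene) and WT mice 1 to 3 (dark, right). Symbols are single mice and bars are mean ± SD (n = 3 each). Mest and Trp53inp2 separate the genotypes, and in Sfrp5 mouse 3 of each genotype (triangles) lies above the other mice of its genotype.

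Mest encodes a protein of the alpha/beta hydrolase fold, and its level in fat varies with fat mass in mice. Its linear intensities were 3047, 1907 and 1753 in KSR2-/- mice 1 to 3, against 543, 363 and 659 in WT mice 1 to 3. On the log2 scale these were 11.57, 10.90 and 10.78 in KSR2-/- and 9.08, 8.50 and 9.36 in WT. The lowest KSR2-/- mouse lay 1.41 log2 above the highest WT mouse, and KSR2-/- 1 was the highest of all. The means were 11.08 ± 0.43 in KSR2-/- and 8.98 ± 0.44 in WT (SD, n = 3 each), a difference of 2.10 (SE 0.30) with limma unadjusted p = 0.000202 and adjusted p = 0.152. By unadjusted p it stood at rank 24 of 18193 genes, and 76 genes had a larger positive difference. The exact two-sided permutation test gave p = 0.1, the smallest that 3 against 3 mice allow.

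The Mest difference had the same sign in both number series. It was 2.44 (SE 0.34) within the higher-numbered series, where limma on those 4 arrays gave adjusted p = 0.0331, a threshold passed there by 2.68% of all genes. Within the lower-numbered pair it was 1.41, from 1 mouse of each genotype. The difference between these values was -1.03 (SE 0.59, limma unadjusted p = 0.135 for the interaction). Without KSR2-/- 3 the Mest difference was 2.25 and passed limma at adjusted p = 0.0199, in a fit where 816 of 18193 genes passed.

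Sfrp5 encodes a secreted frizzled-related protein, which binds WNT ligands outside the cell and is released by adipocytes. Its main probe set read 8.54, 8.96 and 10.68 in KSR2-/- mice 1 to 3, against 6.70, 6.10 and 9.61 in WT mice 1 to 3. Mouse 3 was the highest of its genotype in both groups, and WT 3 lay above KSR2-/- 1 and 2, so that the groups overlapped. The means were 9.39 ± 1.13 in KSR2-/- and 7.47 ± 1.87 in WT (SD, n = 3 each), a difference of 1.93 (SE 0.96) with limma unadjusted p = 0.0849 and adjusted p = 0.495. Mouse 3 exceeded the mean of mice 1 and 2 by 1.93 in KSR2-/- and by 3.21 in WT, so that the step between number series was no smaller than the genotype difference.

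With the number series as a block, the Sfrp5 difference stayed at 1.93 and its SE was 0.33, with limma unadjusted p = 0.000824 and adjusted p = 0.159. Among the higher-numbered mice it was 2.35 (SE 0.30, limma adjusted p = 0.0283), and KSR2-/- 3 exceeded WT 3 by 1.07. The interaction was -1.28 (SE 0.53, limma unadjusted p = 0.0553). Mesothelial markers moved with the same arrays. Of 10 listed and measured, all at or above the median gene, their summed linear intensity was 1122, 1597 and 4719 in KSR2-/- mice 1 to 3 and 1429, 1513 and 3191 in WT mice 1 to 3. Their part in the Sfrp5 values was not tested.

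**Figure D2:**
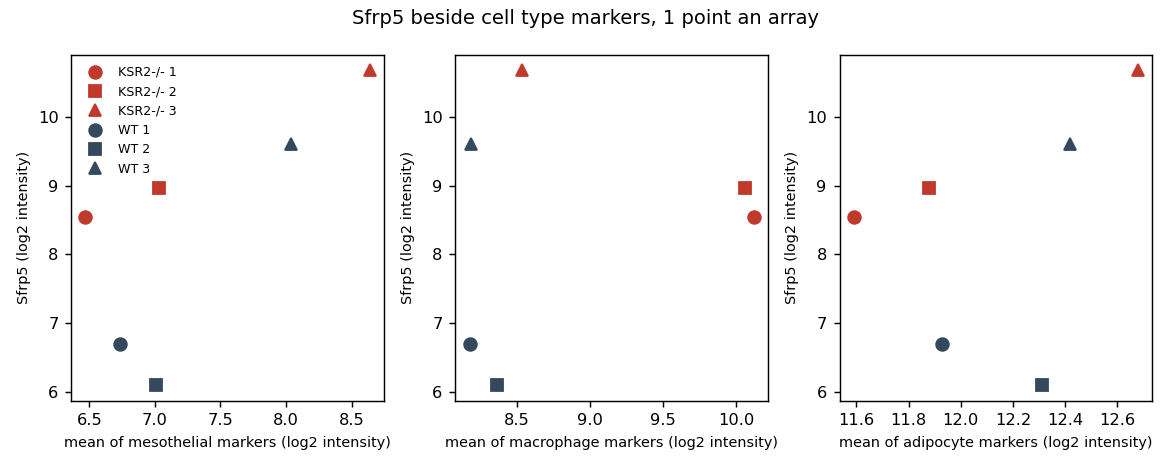
Log2 intensity of Sfrp5 (vertical axes) beside the mean log2 intensity of mesothelial, macrophage and adipocyte markers (horizontal axes), 1 point a mouse, KSR2-/- in red and WT in dark. Mouse 3 of each genotype (triangles) is high in Sfrp5 and in mesothelial markers, and KSR2-/- 1 and 2 stand apart in macrophage markers.

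The second Sfrp5 probe set, 1423023_at, read 7.30, 6.32 and 9.06 in KSR2-/- mice and 5.92, 4.81 and 6.26 in WT mice. Here the genotypes did not overlap, by a margin of 0.06, and KSR2-/- 3 was again the highest. The difference was 1.90 (SE 0.71), with limma unadjusted p = 0.0329 and adjusted p = 0.445 over all probe sets. The probe sets disagreed most in WT 3, which exceeded the mean of WT 1 and 2 by 0.90 in this probe set. WT 3 is the array with the Gapdh value of 4.18, whose part in this was not tested.

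Trp53inp2 encodes a protein that binds LC3-type proteins during autophagosome formation and, in the nucleus, assists the thyroid hormone receptor. Its main probe set read 11.97, 12.10 and 11.65 in KSR2-/- mice, against 9.72, 10.92 and 11.27 in WT mice. The genotypes were separated by 0.39, and WT 1 was the lowest array. The means were 11.91 ± 0.23 in KSR2-/- and 10.64 ± 0.81 in WT (SD, n = 3 each), and the difference was 1.27 (SE 0.39) with limma unadjusted p = 0.0137 and adjusted p = 0.296. Without WT 1 the difference was 0.81 (limma adjusted p = 0.345).

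The dimmer Trp53inp2 probe set, 1444396_at, gave 5.85, 6.57 and 5.66 in KSR2-/- and 3.97, 4.85 and 5.21 in WT. Again every KSR2-/- mouse lay above every WT mouse, with KSR2-/- 2 highest and WT 1 lowest. Its difference was 1.35 (SE 0.37, limma adjusted p = 0.341 over all probe sets). In the main probe set the difference was 1.71 among the higher-numbered mice and 0.39 in the lower-numbered pair, with an interaction of -1.33 (SE 0.72, limma unadjusted p = 0.122).

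Npr3 encodes the natriuretic peptide clearance receptor, which takes up these peptides and, in fat, limits their lipolytic signal. The main probe set read 11.82, 11.79 and 12.17 in KSR2-/- mice and 10.92, 11.35 and 11.87 in WT mice. All 3 KSR2-/- mice exceeded the WT median, and WT 3 overlapped them. The means were 11.93 ± 0.21 in KSR2-/- and 11.38 ± 0.48 in WT (SD, n = 3 each), a difference of 0.55 (SE 0.26) with limma adjusted p = 0.473. Without WT 1 it was 0.32, and without WT 3 it was 0.79.

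Probe set 1448024_at of Npr3 gave 9.06, 8.82 and 9.89 in KSR2-/- and 8.82, 8.31 and 7.78 in WT, a difference of 0.95 (SE 0.36, limma unadjusted p = 0.034, adjusted p = 0.446 over all probe sets). Probe set 1450286_at gave 8.28, 8.40 and 9.49 in KSR2-/- and 7.67, 8.29 and 8.76 in WT, a difference of 0.48 (SE 0.40, limma adjusted p = 0.762). All 3 probe sets were higher in KSR2-/- on average. They differed in where WT 3 lay, lowest of all arrays in 1448024_at and the highest WT array in the other 2 probe sets.

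Nnat encodes neuronatin, a small membrane protein of the endoplasmic reticulum. Its 1 probe set read 9.93, 9.77 and 11.14 in KSR2-/- mice, against 11.01, 10.92 and 10.40 in WT mice. KSR2-/- 1 and 2 were the lowest arrays and KSR2-/- 3 the highest, so the WT values lay between them. The means were 10.28 ± 0.75 in KSR2-/- and 10.78 ± 0.33 in WT (SD, n = 3 each), a difference of -0.50 (SE 0.38, limma adjusted p = 0.687). Nnat lies within Blcap in the RefSeq annotation, and Blcap, singled out for that position outside the rule for named genes, differed by -0.53 (SE 0.29, limma adjusted p = 0.537), or by -0.24 without KSR2-/- 1 and -0.82 without KSR2-/- 3. Blcap read 7.90, 8.47 and 9.05 in KSR2-/- mice and 9.13, 9.01 and 8.88 in WT mice. As in Nnat, KSR2-/- 3 was the highest KSR2-/- mouse, but it did not exceed WT 1. The adipocyte marker sums had the order of Nnat in part, with KSR2-/- 1 and 2 below every WT mouse at 30631 and 37081 and KSR2-/- 3 above them at 52510. Within WT mice 1 to 3 the sums, at 42748, 49017 and 50285, ran opposite to Nnat, as they did between KSR2-/- 1 and 2. Their part in the Nnat values was not tested.

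Of the 5 main probe sets, the Nnat difference alone changed sign between the number series. It was -1.12 among the higher-numbered mice (SE 0.21, limma adjusted p = 0.0706) and 0.74 in the lower-numbered pair. WT 3 of that pair had the Gapdh difference of 4.18, and its part in the Nnat values was not tested. The interaction was 1.86 (SE 0.37), with limma unadjusted p = 0.0031 and adjusted p = 0.383 over all genes. In all, 4 members were higher in KSR2-/- over the 6 arrays, and all 5 were higher in the lower-numbered pair.

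**Figure D3:**
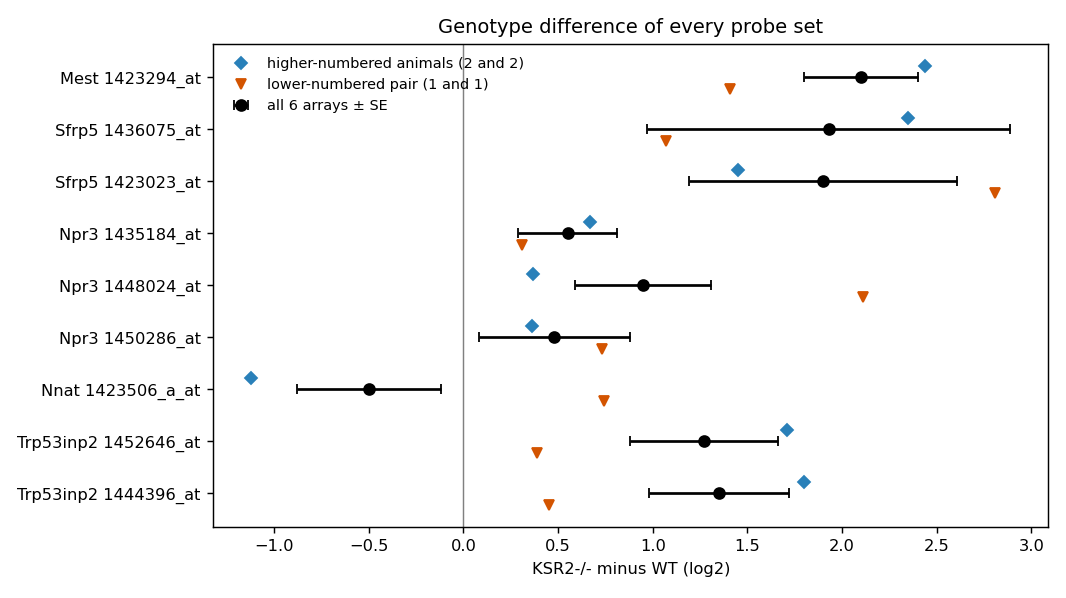
KSR2-/- minus WT in log2 (horizontal axis) for all 9 probe sets of the measured genes (vertical axis). Black circles with bars are the limma difference ± SE over 6 arrays, blue diamonds the difference within the higher-numbered animals and orange triangles that of the lower-numbered pair. Nnat, at -1.12 and 0.74, is the 1 probe set with opposite signs.

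Macrophage markers also moved with genotype. All 10 were measured, 9 at or above the median gene with Itgam below it, and their summed linear intensity was 23329, 20996 and 9374 in KSR2-/- mice 1 to 3 and 8158, 8568 and 8944 in WT mice 1 to 3. All 10 were higher in KSR2-/- on average, with 6 at an unadjusted limma p under 0.05. KSR2-/- 1 and 2 carried the larger sums, and these were also the mice with the lower Sfrp5 and Nnat levels within their genotype. Mest, at 11.57, 10.90 and 10.78 in KSR2-/- mice 1 to 3, had the same order as these sums within that genotype. In the lower-numbered pair, with sums of 9374 in KSR2-/- and 8944 in WT, Mest differed by 1.41. The part of macrophage RNA in the member differences was not tested. Adipose progenitor sums overlapped, at 13991 to 16208 in KSR2-/- and 14048 to 16792 in WT, with all 9 measured markers at or above the median gene. Endothelial sums overlapped as well, at 1422 to 2271 in KSR2-/- and 1503 to 1913 in WT.

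The arrays were not ordered alike by the 5 genes. Mest and Trp53inp2 separate the genotypes, so that no pooled correlation is given for pairs that hold either. Among the other 3 pairs, Sfrp5 and Npr3 had Pearson r = 0.90 (exact permutation p = 0.0222, adjusted p = 0.222) and Spearman rho = 0.89 (exact permutation p = 0.0333, adjusted p = 0.167) over 6 arrays, two-sided and adjusted over 10 pairs. Without WT 1 and WT 2, the arrays farthest from the Sfrp5 median, r was 0.92. Both genes were higher on average in KSR2-/-, and in each genotype mouse 3 exceeded the mean of mice 1 and 2. That step was 1.93 and 3.21 for Sfrp5 and 0.37 and 0.73 for Npr3, in KSR2-/- and WT in that order. Such shared steps enter r, and the permutation did not account for genotype or number series. Sfrp5 and Nnat had r = -0.19 (exact permutation p = 0.675, adjusted p = 0.675) and rho = 0.09 (exact permutation p = 0.919, adjusted p = 0.919). Npr3 and Nnat had r = -0.29 (exact permutation p = 0.581, adjusted p = 0.645) and rho = 0.09 (exact permutation p = 0.919, adjusted p = 0.919). Without WT 1 and WT 2, r was 0.96 in both of these pairs, so that their sign rests on those arrays.

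Other genes followed each member closely over the 6 arrays, which describes likeness and carries no test. In Mest and Trp53inp2, whose genotypes separate, the step between genotypes enters r, and a gene that separates them alike scores high. Among 8924 genes at or above the median gene mean, the pattern of Mest was most like those of Actn1, an actin crosslinker (r = 0.9945), Stk19 (0.9911) and the splicing factor gene Sf3b4 (0.9891), and 43 genes had r above 0.95. Sfrp5 was most like Pcbd1 (r = 0.9999), Klf14 (0.9892) and Map1lc3a (0.9868). Pcbd1 encodes an enzyme that recycles a pterin cofactor, Klf14 an imprinted transcription factor of fat and Map1lc3a an LC3 protein of autophagosomes. Npr3 was most like Triap1 (0.9860), Tmem45b (0.9853) and Prr32 (0.9841). Nnat was most like Sdc2, a syndecan of the cell surface (0.9919), Sh3glb2 (0.9833) and the kinase-like gene Stk40 (0.9827). Trp53inp2 had 141 genes above 0.95, led by the Argonaute gene Ago2 (0.9958), the transglutaminase Tgm2 (0.9947) and the inflammatory caspase Casp1 (0.9926).

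Klf14, named for its likeness to Sfrp5 over these same arrays, which makes a shared step likely, had the step of Sfrp5 between number series. It read 6.33, 6.49 and 7.15 in KSR2-/- and 5.43, 4.83 and 6.79 in WT, a difference of 0.98 (SE 0.49, limma adjusted p = 0.501), or of 0.55 without WT 2 and 1.53 without WT 3. As in Sfrp5, WT 3 lay above KSR2-/- 1 and 2.

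No gene of the WNT list passed limma after adjustment. The list held 67 measured ligands, receptors, inhibitors and transducers besides Sfrp5, with a median difference of -0.01 beside -0.04 for all genes. Unadjusted limma p was under 0.05 for 3 higher and 3 lower genes, 8.96% of the list against 12.1% of all genes. The 3 higher were Frzb by 1.41 (SE 0.31), Sfrp1 by 1.00 (SE 0.34) and Wif1 by 0.96 (SE 0.17), which encode secreted WNT inhibitors. Other secreted inhibitors of the list, given beyond the rule for named genes, differed by -0.27 (Sfrp2), -0.15 (Sfrp4), -0.01 (Dkk1), -0.61 (Dkk2), 0.32 (Dkk3), -0.29 (Dkk4) and -0.29 (Notum). None of these had an unadjusted limma p under 0.05. Frzb, a frizzled-related protein like Sfrp5, read 5.91, 4.68 and 5.14 in KSR2-/- and 3.83, 3.71 and 3.99 in WT, with no overlap (limma adjusted p = 0.214). Wif1 read at most 3.42, far below the median gene. The 3 lower were Rspo3, which boosts WNT signalling (-1.02, SE 0.29), Znrf3, a ligase that removes frizzled receptors (-0.57, SE 0.21), and Dvl3, a dishevelled transducer (-0.38, SE 0.15). Frzb, Wif1, Rspo3 and Dvl3 lay below the median gene on all 6 arrays, and on log2(intensity + 16) they differed by 0.85, 0.28, -0.58 and -0.19 in that order. The Sfrp1 groups overlapped, at 7.73 in KSR2-/- 3 and 7.79 in WT 2. With the mean of a gene's probe sets Sfrp1 differed by 0.69 (limma unadjusted p = 0.0611), Frzb by 0.98, Rspo3 by -0.55 and Znrf3 by -0.35. Nkd1, a dishevelled inhibitor singled out beyond the rule, differed by 0.50 (SE 0.52, limma adjusted p = 0.782).

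Of 50 measured BMP genes other than Bmp3, 2 were higher and 7 lower at an unadjusted limma p under 0.05, 18% of the list against 12.1% of all genes, and 0 passed after adjustment. The 2 higher were Smad6, an inhibitory SMAD (0.59, SE 0.24), and the activin receptor Acvr1b (0.46, SE 0.17). Chrdl1, an extracellular BMP antagonist, read 6.69, 7.50 and 8.98 in KSR2-/- and 8.91, 9.74 and 9.88 in WT, a difference of -1.78 (SE 0.57, limma adjusted p = 0.306). Its KSR2-/- values spread widely, and KSR2-/- 3 overlapped WT 1. The ligand gene Bmp7 differed by -0.49 (SE 0.17), the antagonist Sostdc1 by -0.66 (SE 0.22) and Id1, a target of BMP signalling, by -0.71 (SE 0.28). The other Id genes of the list, given beyond the rule for named genes, differed by 0.46 (Id2), 0.19 (Id3) and 0.06 (Id4). None of them had an unadjusted limma p under 0.05. With the mean of a gene's probe sets Acvr1b differed by 0.17 (limma unadjusted p = 0.266) and Sostdc1 by -0.33 (limma unadjusted p = 0.129). Without KSR2-/- 3 the Smad6 difference was 0.35. The median of the list was -0.06.

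The natriuretic peptide and cyclic GMP list held 19 measured genes besides Npr3. Of the 19, Ostc was matched through an alias in place of the listed Ostn and is another gene (0.34, limma unadjusted p = 0.258). Unadjusted limma p was under 0.05 for 1 higher and 0 lower genes, 5.26% of the list against 12.1% of all genes, and 0 passed limma after adjustment. That gene was Vasp, an actin regulator phosphorylated by the cyclic GMP kinase, with 8.67, 8.08 and 8.68 in KSR2-/- and 7.60, 7.28 and 7.26 in WT (1.09, SE 0.22, limma adjusted p = 0.197). The groups of Vasp did not overlap. Prkg1, the kinase gene itself, differed by -0.29 (SE 0.19, limma adjusted p = 0.619).

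Among 46 measured genes of the imprinted list, without Mest and Nnat, 1 was higher and 5 lower at an unadjusted limma p under 0.05. That was 13% of the list, close to the 12.1% of all genes, and 0 passed limma after adjustment. Of the 46, Nckap1 was matched through an alias in place of the listed H19 and is another gene (-0.09, limma unadjusted p = 0.704). Meg3, a maternally expressed long noncoding RNA, read 9.76, 9.86 and 9.07 in KSR2-/- and 8.39, 7.97 and 8.84 in WT, a difference of 1.16 (SE 0.30). As in Mest, its groups did not overlap. On this list the groups were separated with KSR2-/- higher in 1 gene and lower in 6, beside 7.72% and 8.56% of all genes. With the mean of its probe sets the Meg3 difference was 0.62 (limma unadjusted p = 0.0038), and in the lower-numbered pair it was 0.22. Lower values were measured for the growth regulator Plagl1 (-1.29, SE 0.49), the paraoxonase Pon3 (-1.14, SE 0.30), Mcts2 (-1.09, SE 0.43) and the cell cycle inhibitor Cdkn1c (-0.86, SE 0.26). Plagl1 read 9.21, 9.31 and 11.10 in KSR2-/- and 11.30, 11.04 and 11.15 in WT, so that KSR2-/- 3 lay with the WT mice, and with the mean of its probe sets the difference was -0.79 (limma unadjusted p = 0.0707). The adipocyte sums were likewise low in KSR2-/- 1 and 2 and high in KSR2-/- 3, and their part in Plagl1 was not tested. Without KSR2-/- 1 the Mcts2 difference was -0.71. Copg2, the neighbour of Mest, was singled out for its position and differed by -0.23 (SE 0.20, limma adjusted p = 0.724).

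The autophagosome list, drawn up around the role of Trp53inp2, held 44 measured genes, of which 2 were higher and 0 lower at an unadjusted limma p under 0.05, 4.55% of the list against 12.1% of all genes, and 0 passed limma after adjustment. These were the cargo receptor Sqstm1 (0.60, SE 0.19) and the lysosomal membrane gene Lamp1 (0.46, SE 0.19). The median was 0.06. Trp53inp2 itself differed by 1.27.

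A list of 33 measured genes tied to fat cell size or obesity held 14 higher and 5 lower at an unadjusted limma p under 0.05, 57.6% of the list against 12.1% of all genes, with 0 past adjustment and a median of 0.33. The list was drawn up with earlier results of these data known, so its share is not independent evidence of a direction. Its median was 0.14 without KSR2-/- 3 and 0.53 without KSR2-/- 1. Tph2 was put on it because of earlier results of these data, and without it 13 of 32 were higher and 5 lower. Of 6 genes of the list that immune cells express, 6 were higher, with a median of 3.12. They were grouped after their values were seen, as were the other 27, of which 8 were higher and 5 lower, with a median of 0.13. Tph2, which makes serotonin's precursor, differed by 5.90 (SE 0.61). Mmp12, a macrophage elastase, differed by 6.07 (SE 0.86), Itgax, an integrin of macrophages and dendritic cells, by 3.30 (SE 0.61), and the chemokine gene Ccl2 by 2.46 (SE 0.35). Like the macrophage sums given above, each of these genes was lower in KSR2-/- 3 than in KSR2-/- 1 and 2. In the lower-numbered pair the sums were 9374 in KSR2-/- and 8944 in WT. There Tph2 differed by 4.23, Mmp12 by 3.48, Itgax by 1.46 and Ccl2 by 1.62. The part of macrophage RNA in these genes was not tested.

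On the same list, leptin and the lower genes read otherwise. Lep, the adipocyte hormone that tracks fat mass, was singled out beyond the rule and read 11.80, 12.40 and 12.46 in KSR2-/- and 9.42, 11.13 and 11.76 in WT. Its groups were separated, narrowly between KSR2-/- 1 and WT 3, and it differed by 1.45 (SE 0.57, limma adjusted p = 0.38), or by 0.77 without WT 1. Cav1, the caveolar coat gene, was also singled out and differed by -0.06 (SE 0.16, limma adjusted p = 0.932). Lower values at an unadjusted limma p under 0.05 were those of the angiotensin precursor Agt (-2.04, SE 0.36), the glucose transporter Slc2a4 (-1.40, SE 0.55), the adipokine Retn (-1.23, SE 0.42), Vegfa (-0.65, SE 0.18) and, beyond the rule for named genes, the adipokine Adipoq (-0.51). With the mean of its probe sets Slc2a4 differed by -1.13 (limma unadjusted p = 0.171). The adipocyte sums, lower in KSR2-/- 1 and 2 than in every WT mouse, are given above. Retn, Adipoq and Lep are themselves on the adipocyte marker list, and the part of the adipocyte sums in the other genes was not tested.

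**Figure D4:**
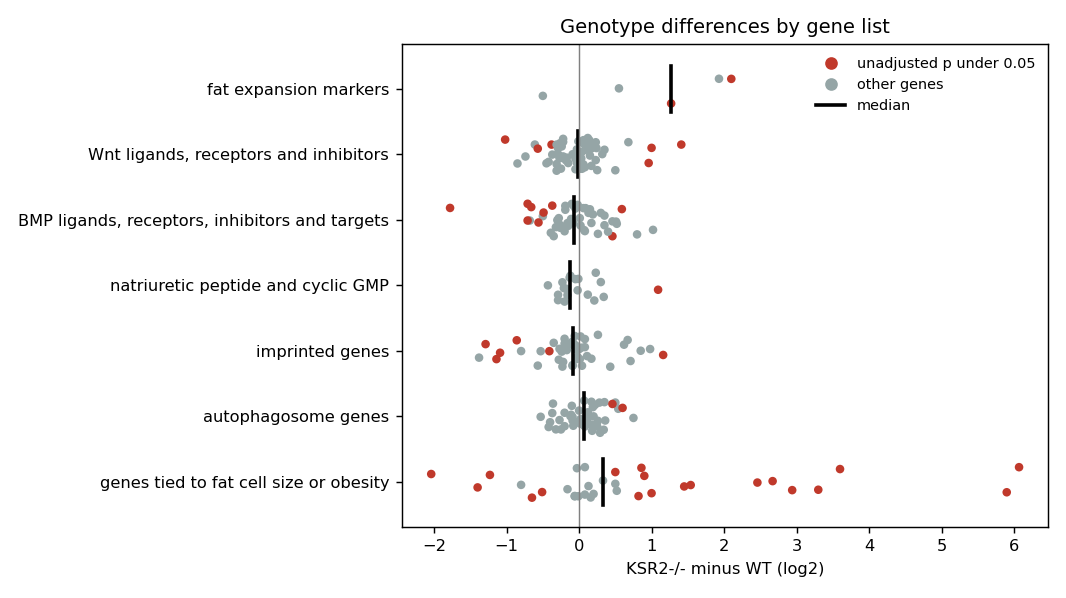
KSR2-/- minus WT in log2 (horizontal axis) for the 5 measured fat expansion markers and for each gene list (vertical axis), 1 point a gene, red where the unadjusted limma p is under 0.05, with a black bar at the median. The marker median is 1.27, and the list medians run between -0.12 and 0.33.

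By position, the 5 measured members lie on chromosomes 2, 6, 15 and 19 in the RefSeq annotation, and none lies on chromosome 5 with Ksr2. Trp53inp2 and Nnat share chromosome 2 with 80 listed genes between them, and they had differences of 1.27 and -0.50.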

How the data were processed

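White adipose tissue of 3 KSR2-/- and 3 WT mice was measured on 1 array each, and arrays were numbered in accession order within a genotype. The authors deposited RMA intensity values on a linear scale, with RMA named in the submitters' processing notes and no version given there. The linear scale is read from the values, whose lowest was 2.96. RMA fits all arrays together, so the arrays are not independent at that step. Here log2 was taken with no pseudocount. Of 45101 probe sets, 34945 had 1 gene symbol, 932 several and 9160 none, and 64 were controls. Symbols were updated by gene identifier to RefSeq (34741 matched). Each gene was read from its probe set with the highest mean over 6 arrays, with no filter on dim genes, and the other probe sets were read from a fit of all probe sets.

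The genotypes were set against each other by limma (version 3.58.1, R 4.3.3) with a two-sided moderated test, no trend, 3.06 prior degrees of freedom, and p-values adjusted by Benjamini-Hochberg over 18193 genes (threshold 0.05). Precision is limited by the 6 arrays. The median SE of a gene was 0.22 log2. Correlations used exact permutations (scipy 1.17.1). The procedure was tested on simulated data. The members and lists were chosen with earlier results of these data known. Named genes are the members and, per list, up to 4 genes in each direction of smallest unadjusted p under 0.05, or the 2 of smallest p where fewer than 2 qualified, and the 3 genes most like each member by Pearson r, clone-type symbols left out. Genes named beyond that rule are marked where they appear. Marker lists of brown fat, mammary epithelium, lymphocytes, skeletal muscle and nerve were also summed. Alternatives were a filter at the median gene mean, the mean of probe sets, every probe set, repeated quantile normalization, centring, eBayes with trend or robust, the number series as a block and within each series, the Gapdh difference as a covariate, log2(intensity + 16) and leaving out each array.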

Additional observations from a re-analysis of the deposited data

Results flagged for a closer look

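Nnat stood out because the genotypes moved in opposite directions in the higher-numbered and lower-numbered animals. KSR2-/- 1 and 2 lay below WT 1 and 2, a difference of -1.12 log2, whereas KSR2-/- 3 lay above WT 3, a difference of 0.74 log2. WT 3 is also the array that stood apart in the Gapdh difference, at 4.18, and the part of RNA quality was not tested. The interaction of 1.86 (SE 0.37) had limma unadjusted p = 0.0031 and adjusted p = 0.383 over all genes, and the lower-numbered side rests on 1 mouse of each genotype.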

How the results depend on the processing

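Mest, Sfrp5, Npr3 and Trp53inp2 kept a positive difference under all 18 alternatives run for each, from 1.41 to 2.44, 1.07 to 2.99, 0.31 to 0.79 and 0.39 to 1.71 log2 in that order of genes, and Nnat kept a negative one under 17 of 18, from -1.12, with 0.74 within the lower-numbered pair. Limma adjusted p ran from 0.0199 to 0.576 for Mest and from 0.0283 to 0.82 for Sfrp5. Mest passed without KSR2-/- 3 (2.25) and within the higher-numbered series (2.44), and Sfrp5 within that series (2.35). Leaving out single arrays gave 1.85 to 2.29 for Mest, 1.24 to 2.99 for Sfrp5, 0.32 to 0.79 for Npr3, -0.93 to -0.24 for Nnat and 0.81 to 1.59 for Trp53inp2. The 1 gene past adjusted p became 12 with the filter at the median gene or repeated quantile normalization, 16 with centring, 10 with eBayes trend, 6 with the Gapdh covariate, 487 within the higher-numbered series, and 0 (4544, 2361 and 2071 at an unadjusted limma p under 0.05) with every probe set, the number series as a block or log2(intensity + 16). It was 0 without KSR2-/- 1, KSR2-/- 2, WT 1 or WT 2 (1169 to 2243 at an unadjusted p under 0.05), 9 without WT 3 and 816 without KSR2-/- 3. Other single genes that changed sign were, with single arrays left out, Ksr2 (-0.27 to 0.08), Nkd1 (-0.06 to 0.95) and Cav1 (-0.15 to 0.00), and within the lower-numbered pair Id1 (0.02), Blcap (0.18), Slc2a4 (0.30) and Cav1 (0.09). Of the list medians, those of the BMP and natriuretic peptide lists were 0.09 and 0.10 with the filter at the median gene, the BMP median was 0.04 without KSR2-/- 2, the autophagosome median was -0.12 without WT 1, and the WNT median, -0.01, changed sign under 5 alternatives, to at most 0.10. The cause was not tested. No paired analysis was possible because the labels give no replicate numbers shared by the genotypes. With 3 arrays a genotype, differences of the size of the SE cannot be resolved.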

Other observations

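Marker lists of other tissues differed between arrays. Skeletal muscle markers, 4 of 10 at or above the median gene, summed to 507, 534 and 1319 linear units in KSR2-/- mice 1 to 3 and to 289, 558 and 2285 in WT mice 1 to 3. Mammary markers, all but 1 of 10 below the median gene, summed to 189, 207 and 460 in KSR2-/- and to 228, 242 and 976 in WT. Of these 10, 2 were higher in KSR2-/- on average and 2 were lower at an unadjusted limma p under 0.05, with a median difference of -0.44 log2. Both lists were highest in WT 3 and next highest in KSR2-/- 3, the arrays in which Sfrp5 was highest within its genotype.

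Markers of brown or beige adipocytes, 9 measured of 10 with Ucp1, Elovl3, Dio2, Ppargc1a and Otop1 below the median gene, summed to 621, 821 and 1172 in KSR2-/- and to 1359, 2986 and 2117 in WT. Their mean log2 levels overlapped, at 5.37, 5.49 and 6.16 in KSR2-/- and 5.89, 6.39 and 6.48 in WT, and at an unadjusted limma p under 0.05 1 was higher and 3 were lower. Lymphocyte markers, 8 measured of 10 with Cd3g, Cd2 and Cd79a below the median gene, summed to 4745, 7194 and 7168 in KSR2-/- and to 2712, 3235 and 3736 in WT. Their mean log2 levels overlapped as well, at 7.14, 6.75 and 6.89 in KSR2-/- and 7.20, 6.09 and 6.21 in WT, and 1 of the 8 was higher at an unadjusted limma p under 0.05. Markers of nerve and Schwann cells, 7 measured of 10 with 1 at or above the median gene, summed to 382, 440 and 374 in KSR2-/- and to 280, 338 and 358 in WT.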
